A study of Saccharomyces cerevisiae with 6 samples.

Results

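Large subunit ribosome assembly genes encode the nucleolar and nuclear proteins that build the large ribosomal subunit of budding yeast. The members were taken by locus tag from a list of 41 genes (NOP, NOC, RPF, SSF, DBP and related factors), of which 38 had at least 1 RNA in the deposited table; DBP6, RLP24 and NSA2 are not analysed here. These 38 genes of 4134 contributed 66 RNAs of 6962, since 20 of them had 2 or more RNAs. The RNAs of a gene carry the same locus tag and a different number, taken here as its leader length in nucleotides (nt). The leader is the stretch of an mRNA that precedes the start codon. There were 18 member genes with 1 RNA, 13 with 2, 6 with 3, and NOG1 with 4.

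The RNAs were synthesised with T7 RNA polymerase from a designed pool, capped, and incubated in a translation extract of Saccharomyces cerevisiae, so no chromosomal gene, promoter or living cell is part of the measurement. After a sucrose gradient, RNA of the 80S fraction (3 libraries, with both ribosomal subunits joined on the RNA) and of the fraction labelled untranslated (2 libraries) was purified with phenol and chloroform and with a biotin pulldown. The input is 1 library of the pool, for which the labels name the phenol and chloroform step without the pulldown. How much coding sequence each RNA carries is not given in the sources used here, and the labels do not say that each replicate had its own extract. The p-values therefore reflect library-to-library spread, possibly of technical origin.

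The large subunit is assembled in the nucleolus on a long precursor RNA that holds spacers between the mature ribosomal RNAs. Assembly factors join in stages, among them DEAD-box helicases that remodel RNA, GTPases that act as timers, methyltransferases, and scaffold proteins that hold folding domains, before the particle leaves for the cytoplasm. The pool asks a separate question, namely how well the leader of each mRNA lets a ribosome assemble on it.

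Stretches of HAS1, MAK5, NOP2 and RLP7, whose leaders differed past the threshold, are shown first, so that the added bases can be read beside the values. They were chosen after the values were seen, and DBP9, YTM1 and NOP15 also had large differences. As read from the reference, the longer leader of a gene holds all of the shorter one and adds bases at its 5′ end. The sequences of the synthesised RNAs were not in the sources used here. Whether they match the reference, including at the 5′ end, was not checked. Sequences are those of the reference genome R64 (RefSeq), written in DNA letters, 5′ end first, in the sense of the RNA, with the bases that the longer leader alone holds in capitals and the first bases it shares with the shorter one in lower case. The stretches lie at chrXIII:851607-851636 (minus strand) and chrXIII:851628-851657 (minus) for HAS1, chrII:528259-528288 (plus) and chrII:528234-528263 (plus) for MAK5, chrXIV:510497-510526 (plus) for NOP2, and chrXIV:627154-627183 (minus) for RLP7. All are the 5′ end of the longer leader, upstream of the annotated coding sequence and not adjoining it, for which the reference annotates no untranslated exon.
HAS1 45 nt against 27 nt: ATACTATAATAATTAGATaagctgagcaat
HAS1 66 nt against 45 nt: ACATAGCTATTGGATAACTGTatactataa
MAK5 58 nt against 47 nt: ATCATAACCTCaggtagaaattctttagtc
MAK5 83 nt against 58 nt: ATTCGCCAACCTGCCCATCATTATCatcat
NOP2 43 nt against 18 nt: TTGTGTTGGCTAATATTAGAATTACatata
RLP7 41 nt against 17 nt: GAGGCTGCCACAGGGAAAAAGAATaagata

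Upstream start codons are the best known leader element that diverts scanning ribosomes, and 2 member leaders held an ATG. The first 30 bases of these leaders are shown with the upstream ATG, and its stop codon where it lies in the stretch, in capitals (SSF1 at chrVIII:229281-229310, YTM1 at chrXV:832739-832768, both plus strand). In SSF1 the ATG is the very first triplet of the leader and its frame stops after 7 codons. In YTM1 the ATG starts at base 6 and its frame stops after 11 codons, beyond the stretch shown.
SSF1 54 nt leader: ATGtttaataataaaagagtaTAAtccaga
YTM1 74 nt leader: attctATGttcgcagaaccaatacgttacc

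Values are FPKM, the authors' fragment count per length of RNA and per mapped reads of the library. Read depth is unknown. Because FPKM values share a library among all RNAs, 1 RNA can be higher in a fraction because others are lower. In the 80S libraries the member median was 1498, 1501 and 1241 FPKM, in the untranslated libraries 1719 and 1707, and in the single input library 2093. Each lay below the median of all RNAs in the same library, which ran from 2049 to 3112. For the middle member the untranslated replicates differed 1.34-fold and the highest and lowest 80S replicates 1.33-fold. Untranslated replicates lay over 2-fold apart for 4 members, HAS1 (45 nt), MAK21 (41 nt), NOG1 (32 nt) and NOG2 (38 nt), up to 2.91-fold for MAK21. Input values were coarse at the low end: 12, 17, 14 and 20 RNAs of the pool had an input of exactly 1, 2, 3 or 4 times the lowest value, 23.9 FPKM, to within 0.001 of a step. Of the 66 member RNAs, 8 (12.1%) had an input under 100 FPKM, against 1.11% of all RNAs.

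Set against the untranslated fraction, the 80S fraction shows which RNAs carried a ribosome, and large subunit assembly RNAs went both ways. NOP13, NOP12 and the shortest HAS1 leader were the lowest in 80S, by 10.2-fold, 8.25-fold and 7.94-fold, and HAS1 (45 nt), DBP2 (41 nt) and NOG2 (27 nt) were the highest, by 4.33-fold, 3.89-fold and 3.83-fold. At an adjusted p under 0.05 in limma, fitted and adjusted over all 6962 RNAs, 20 of the 66 members were higher in 80S and 28 lower, and 18 did not pass. The background over all RNAs was 70.4% called, 38.6% higher and 31.8% lower, while the members stood at 72.7%, 30.3% and 42.4%. The 80S libraries lay entirely above the untranslated ones in 26 members and entirely below in 32, against a background of 43.6% and 35.9% of all RNAs. The median log2 change was -0.22 over the members and 0.18 over all RNAs. With libraries rescaled to each other by median ratios, the medians were -0.37 and 0.03 and the calls 16 higher and 31 lower, and no member changed sign. That is 24.2% and 47% of the members, against 34.9% higher and 34.9% lower over all RNAs under the same rescaling. Called members that differed at least 2-fold numbered 14 higher and 25 lower, 21.2% and 37.9%, against 27.5% and 23.5% of all RNAs. By gene, 11 genes had RNAs called higher and none lower, 18 had RNAs called lower and none higher, 5 had both, and 4 had none called. These are 28.9%, 47.4%, 13.2% and 10.5% of the 38 genes, against 39.4%, 31.6%, 10.8% and 18.2% of all 4134 genes. The role groups below hold at most 15 RNAs each, and their counts describe those RNAs beside the same background of 38.6% higher and 31.8% lower.

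**Figure D1:**
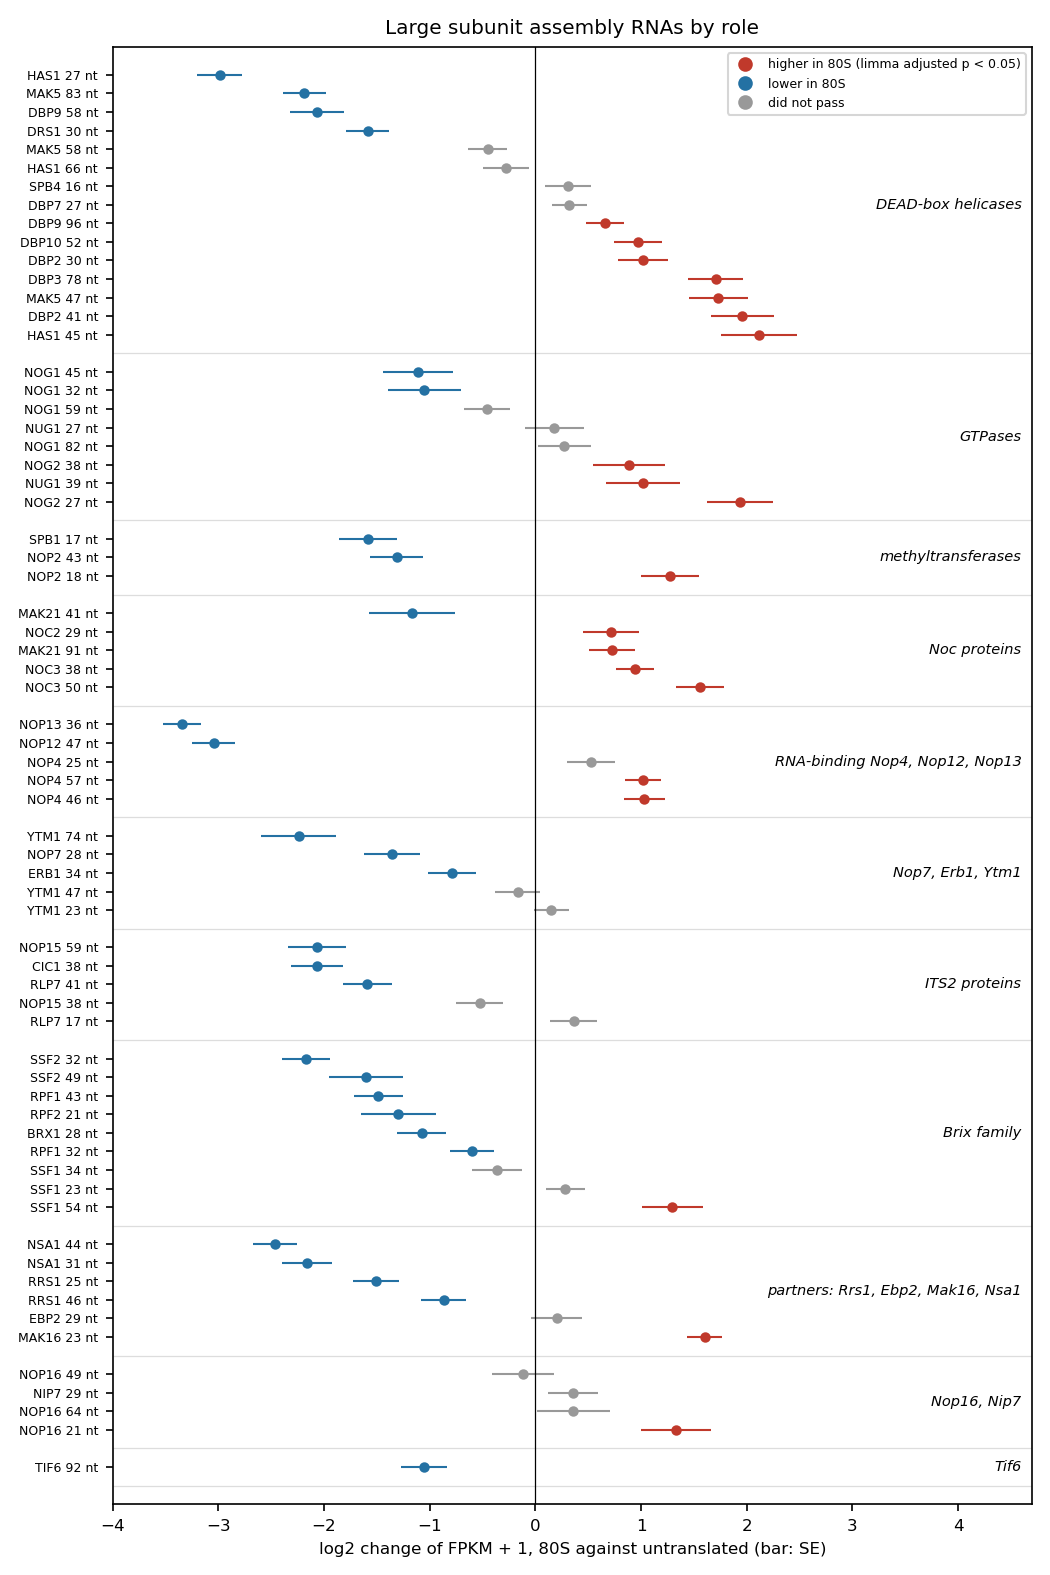
Log2 change of FPKM + 1 between the 80S (n = 3) and the untranslated fraction (n = 2) for the 66 RNAs, grouped by role of the encoded protein; points are limma estimates, bars their SE, and colours the limma call. The values run from -3.34 for NOP13 to 2.11 for the 45 nt leader of HAS1, and RNAs of a role group lie on both sides of 0 in most groups.

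The lowest member was the single RNA of NOP13 (YNL175C), a nucleolar RNA-binding protein, with a 36 nt leader on the minus strand (chrXIV:308613-308648). It stood at 1257, 1460 and 1296 FPKM in 80S replicates 1 to 3, at 12385 and 14851 in the untranslated replicates, and at 3787 in the input. The groups were far apart, with every 80S library below the input and both untranslated libraries above it. Its log2 change was -3.34 (SE 0.18, adjusted p = 1.127e-05 by limma). NOP12 (YOL041C), an RNA-binding protein of early large subunit particles, had the same order of fractions. Its 47 nt leader also lies on the minus strand (chrXV:252647-252693). Its RNA stood at 1110, 1266 and 1058 FPKM in 80S, 8094 and 10975 in untranslated RNA and 3760 in the input, a log2 change of -3.04 (SE 0.21, adjusted p = 1.372e-05 by limma). The third RNA-binding Nop protein, NOP4, went the other way: its 46 nt and 57 nt leaders were 2.04-fold and 2.03-fold higher in 80S (limma, adjusted p = 0.001711 and 0.0007888), and its 25 nt leader, at log2 0.53, did not pass (limma, adjusted p = 0.06491), though it did without untranslated replicate 1 (0.76). The 57 nt leader was the most abundant member in the 80S fraction, at 9752, 11462 and 10798 FPKM against 4876 and 5650 in untranslated RNA.

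DEAD-box helicases, which unwind or remodel RNA with ATP, made up the largest role group. The 15 RNAs divided into 7 that were higher in 80S, 4 that were lower and 4 that missed the threshold, near the 38.6% and 31.8% of all RNAs. DBP3 (YGL078C), a helicase of early spacer processing, rose to 2176, 1591 and 1335 FPKM in 80S from 493 and 528 in untranslated RNA with its 78 nt leader, a log2 change of 1.71 (SE 0.26, adjusted p = 0.0005022 by limma). Both leaders of DBP2, a helicase that also acts on mRNA, were higher. The 41 nt leader stood at 1678, 1806 and 1145 FPKM against 303 and 499, and the 30 nt leader at 575, 728 and 614 against 301 and 326, with no overlap of the groups for either. DBP10 (52 nt) was 1.96-fold higher. DRS1 (30 nt), a helicase of middle assembly stages, was lower, at 3505, 3438 and 3633 FPKM against 8773 and 12792, 3.01-fold. DBP7 (27 nt, log2 0.32) and SPB4 (16 nt, log2 0.31) did not pass, and for SPB4 the groups overlapped. HAS1, MAK5 and DBP9 had leaders in both directions.

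The RNAs of the 3 GTPases NUG1, NOG1 and NOG2, which mark steps in the maturation of the particle, also differed. The 27 nt leader of NOG2 (YNR053C) stood at 1054, 566 and 786 FPKM in 80S and at 198 and 207 in untranslated RNA, so the lowest 80S library was above both untranslated ones (log2 1.94, SE 0.31, adjusted p = 0.0006708 by limma). Its input value was 95.6, 4 of the coarse steps. The calls of NOG2 (38 nt, log2 0.88) and NUG1 (39 nt, log2 1.02) as higher were lost after rescaling. Each was also lost without 80S replicate 1, 80S replicate 2 or untranslated replicate 1. The log2 values were then 0.75, 0.86 and 0.36 for NOG2 (limma, adjusted p = 0.1327, 0.09395 and 0.2874) and 1.05, 0.75 and 0.64 for NUG1 (0.05799, 0.07976 and 0.1043). NOG1 (YPL093W) had 4 leaders, and the 32 nt and 45 nt ones were lower in 80S. The 45 nt leader stood at 1660, 1147 and 1950 FPKM in 80S and at 4711 and 2373 in untranslated RNA, and the 32 nt leader at 2126, 1425 and 1831 against 5572 and 2413. Both calls rested on the first untranslated replicate. Without it the log2 changes were -0.62 and -0.45, which did not pass (limma, adjusted p = 0.06415 and 0.1278), and the 32 nt leader also missed the threshold without 80S replicate 2 (-0.89, adjusted p = 0.06751). Without untranslated replicate 2 it stood at -1.65 (limma, adjusted p = 5.956e-05). The 59 nt leader (log2 -0.46) and the 82 nt leader (log2 0.28) did not pass, and without untranslated replicate 1 the 82 nt leader passed as higher (0.65).

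The Noc proteins pair up to accompany early and middle particles, Mak21 with Noc2 and then Noc2 with Noc3. Of their 5 RNAs 4 were higher in 80S and 1 lower. Both leaders of NOC3 were higher: the 50 nt leader stood at 3362, 3791 and 3859 FPKM against 1530 and 1010, and the 38 nt leader at 4087, 4746 and 4541 against 2153 and 2495. In both the 80S libraries lay well above the untranslated ones (log2 1.56 and 0.94, limma, adjusted p = 0.0003963 and 0.001854). The calls of NOC2 (29 nt, log2 0.72) and MAK21 (91 nt, log2 0.73) were weaker. Both were lost after rescaling. NOC2 also missed the threshold without 80S replicate 1 (0.58), 80S replicate 2 (0.74) or untranslated replicate 1 (0.49), with limma adjusted p of 0.132, 0.07441 and 0.157. MAK21 (91 nt) missed it without 80S replicate 2 (0.68), 80S replicate 3 (0.71) or untranslated replicate 1 (0.43), with limma adjusted p of 0.05348, 0.05397 and 0.09367.

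Nop7, Erb1 and Ytm1 form a trimer needed to process the spacer between the mature large subunit RNAs, and none of their 5 RNAs was higher in 80S. NOP7 (YGR103W, 28 nt) stood at 442, 502 and 411 FPKM in 80S and 954 and 1393 in untranslated RNA (log2 -1.36, SE 0.26, adjusted p = 0.001936 by limma). ERB1 (YMR049C, 34 nt) stood at 604, 436 and 530 against 914 and 884 (log2 -0.79, SE 0.23, adjusted p = 0.01392 by limma). The groups did not overlap for either RNA. YTM1 was lower with its 74 nt leader and did not pass with the others, at log2 0.15 (23 nt) and -0.17 (47 nt). For the proteins bound near the spacer ITS2 the count was the same: of 5 RNAs of NOP15, CIC1 and RLP7, 3 were lower and none higher. CIC1 (38 nt) stood at 450, 481 and 326 FPKM against 1753 and 1713, 4.19-fold lower, and NOP15 (59 nt) at 590, 589 and 382 against 1847 and 2482, 4.19-fold lower.

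The Brix family shares an RNA-binding fold, and each member has a partner. In 80S 6 of its 9 RNAs were lower and 1 higher, with 2 short of the threshold, beside 31.8% lower and 38.6% higher over all RNAs. SSF1 (YHR066W) and SSF2 (YDR312W) are paralogs that encode nearly interchangeable proteins, and the RNAs called for the one were lower and the RNA called for the other higher. Both SSF2 leaders were lower: the 32 nt leader stood at 872, 644 and 611 FPKM against 3037 and 3270 (log2 -2.17, SE 0.23, adjusted p = 6.914e-05 by limma), and the 49 nt leader at 208, 175 and 104 against 437 and 520 (log2 -1.60, SE 0.35, adjusted p = 0.003444 by limma). SSF1 was higher with its 54 nt leader, at 2764, 2816 and 1751 FPKM against 781 and 1212 (log2 1.29, SE 0.29, adjusted p = 0.004021 by limma), and did not pass with the 23 nt (0.28) and 34 nt (-0.36) leaders. RPF2 (21 nt), which with Rrs1 brings in the 5S ribonucleoprotein, was 2.46-fold lower, BRX1 (28 nt) 2.11-fold lower and RPF1 (43 nt) 2.80-fold lower. The shorter RPF1 leader (32 nt, log2 -0.60) lost its call without 80S replicate 1 (-0.58), 80S replicate 3 (-0.53) or untranslated replicate 2 (-0.41), with limma adjusted p of 0.09177, 0.1055 and 0.1305.

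Among the partners on the list of members, RRS1, EBP2, MAK16 and NSA1, 4 of 6 RNAs were lower, 1 was higher and 1 did not pass. The count depends on that list and leaves out RRP14 and RRP15, assembly factors outside it. RRP14 (47 nt) stood at log2 1.65, and RRP15 at -2.28 (15 nt), 1.30 (26 nt), 1.34 (38 nt) and 1.35 (49 nt). NSA1 (YGL111W), which works with Rpf1 and Mak16, was lower with both leaders. The 44 nt leader stood at 1457, 1385 and 1394 FPKM in 80S and at 6575 and 9238 in untranslated RNA, with an input of 1215 that lay just below the 80S libraries (log2 -2.46, SE 0.21, adjusted p = 2.708e-05 by limma). The 31 nt leader stood at 556, 647 and 854 against 3058 and 2977, with an input of 2146 between the fractions (log2 -2.16, SE 0.24, adjusted p = 8.913e-05 by limma). MAK16 (YAL025C, 23 nt) was higher, at 7194, 8295 and 7576 FPKM against 2514 and 2535 (log2 1.60, SE 0.16, adjusted p = 6.479e-05 by limma), and its replicates were among the tightest of the untranslated fraction, 1.01-fold apart. Both leaders of RRS1 were lower, 2.84-fold for 25 nt and 1.82-fold for 46 nt. EBP2 (29 nt), the partner of Brx1, stood at log2 0.20 with overlapping groups and did not pass.

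The methyltransferases that modify the large subunit RNA had 1 RNA higher and 2 lower. SPB1 (17 nt) was lower, at 333, 389 and 481 FPKM against 1009 and 1398 (log2 -1.58, SE 0.27, adjusted p = 0.001077 by limma), and NOP2 had a leader in each direction. NOP16 had its 21 nt leader higher, at 746, 739 and 482 against 191 and 341 (log2 1.33, SE 0.34, adjusted p = 0.007214 by limma), while its 49 nt and 64 nt leaders, with overlapping groups, stood at -0.12 and 0.36. NIP7 (29 nt), a factor of nucleolar large subunit particles, stood at 0.35 and did not pass. TIF6 (YPR016C) encodes the factor that keeps a large subunit from joining a small one too early. Its single 92 nt leader, on the minus strand (chrXVI:593070-593161), stood at 1731, 1541 and 1585 FPKM in 80S, 2767 and 4077 in untranslated RNA and 4137 in the input, 2.08-fold lower in 80S (log2 -1.05, SE 0.22, adjusted p = 0.002674 by limma).

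RNAs of 1 gene, as far as their names show, differ in the extent of the leader alone, and the comparison within a gene asks whether that matters. The largest step of all members lay in HAS1 (YMR290C), a helicase of both subunits, where the 80S to untranslated ratio was 34.4-fold higher with 18 nt more than the 27 nt leader, and 5.25-fold lower again with a further 21 nt. In MAK5 the ratio fell at both steps between its 3 leaders. For DBP9 the longer leader had the higher ratio, and for NOP2 the shorter one. In 15 of 20 member genes (75.0%) the longest and the shortest leader differed at an adjusted p under 0.05 in limma, against a background of 68.1% of 2008 genes. The longer leader was called higher in 7 of the 20 genes (35%, background 34.5% of the 2008) and lower in 8 (40%, background 33.6%). Of 15 steps between neighbouring leaders in the 7 genes with 3 or more, 9 passed (60.0%), 3 with the longer higher and 6 with it lower, against a background of 68.9% of 1500 steps, 32.9% higher and 36.1% lower. Genes with 1 RNA called higher and another called lower numbered 5 of 20 (25%), against 22.2% of all genes with several RNAs.

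**Figure D2:**
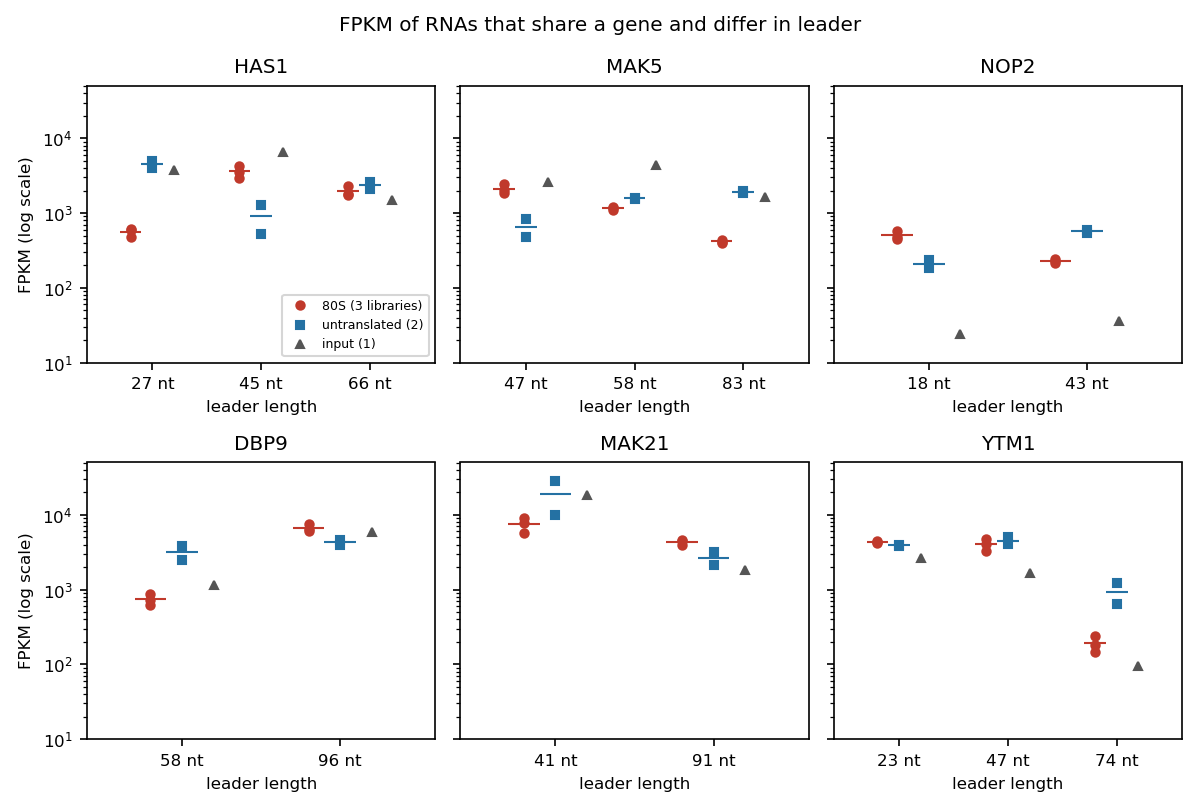
FPKM on a log scale in each library for 6 genes, by leader length; circles are the 80S libraries, squares the untranslated libraries, triangles the input, and horizontal lines group means. In HAS1 the 80S libraries lie below the untranslated ones at 27 nt, above them at 45 nt and among them at 66 nt, and in MAK5 they pass from above at 47 nt to below at 83 nt.

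The HAS1 leaders lie on the minus strand of chromosome XIII and share their 3′ end at 851592. With 27 nt the RNA stood at 475, 616 and 600 FPKM in 80S, 4893 and 4048 in untranslated RNA and 3780 in the input. With 45 nt it stood at 2912, 3572 and 4300 in 80S, 1279 and 525 in untranslated RNA and 6531 in the input. The groups were apart in both, in opposite directions, with log2 changes of -2.99 (SE 0.22, adjusted p = 1.584e-05 by limma) and 2.11 (SE 0.36, adjusted p = 0.0009733). With 66 nt the fractions overlapped, at 1809, 2298 and 1742 against 2120 and 2597, and the change of -0.28 did not pass. The step from 27 to 45 nt was 5.10 on the log2 scale (SE 0.31, adjusted p = 5.813e-06 by limma) and ran from 4.6 to 5.61 over the alternatives tried. The 18 added bases, shown above, were 11.1% G or C, and the 21 bases added next were 33.3%. The step from 45 to 66 nt was -2.39 (SE 0.44, adjusted p = 0.001577 by limma). It depended on the untranslated replicates of the 45 nt RNA: without replicate 1 it was -3.18 and without replicate 2 it was -1.60, and the change of the 45 nt RNA itself was then 2.76 and 1.47, each past the limma threshold.

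MAK5 (YBR142W), another DEAD-box helicase, had its leaders on the plus strand of chromosome II, ending at 528316 and starting at 528270 (47 nt), 528259 (58 nt) and 528234 (83 nt). The 47 nt RNA stood at 2481, 1833 and 2049 FPKM in 80S and at 837 and 478 in untranslated RNA. The 58 nt RNA stood at 1199, 1102 and 1175 against 1610 and 1560. The 83 nt RNA stood at 439, 416 and 403 against 1962 and 1861. Every 80S library was lower with each longer leader while every untranslated library was higher, and the log2 changes were 1.73, -0.45 and -2.19. With the 11 bases added first, of which 36.4% were G or C, the ratio was lower (log2 difference -2.19, SE 0.28, adjusted p = 0.000207 by limma), and with the 25 bases added next, 48% G or C, it was lower again (-1.73, SE 0.22, adjusted p = 0.0001848 by limma). The predicted folding energy of the leader alone was -7.40 kcal/mol for all 3, so it did not move with the ratio.

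NOP2 (YNL061W), the cytosine methyltransferase, was higher in 80S with its 18 nt leader, at 577, 453 and 484 FPKM against 182 and 237, and lower with its 43 nt leader, at 226, 216 and 246 against 548 and 595. The difference between the leaders was -2.58 (SE 0.27, adjusted p = 0.0001227 by limma), and the 80S and untranslated libraries did not overlap for either leader. Both RNAs had the lowest inputs of the members, 23.9 and 35.9 FPKM, which do not enter this difference. RLP7 (YNL002C), a relative of a ribosomal protein that binds near ITS2, did not pass with 17 nt (log2 0.36) and was lower with 41 nt, at 449, 417 and 504 against 1594 and 1183. Its added 24 bases, 50% of them G or C, went with a difference of -1.95 (SE 0.32, adjusted p = 0.00109 by limma). NOP15 showed the same direction between 38 nt and 59 nt (-1.54, SE 0.22, adjusted p = 0.0006048 by limma).

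DBP9 (YLR276C) had the opposite order. Its 58 nt RNA stood at 730, 876 and 622 FPKM in 80S and at 2511 and 3796 in untranslated RNA, and its 96 nt RNA at 6150, 7569 and 6545 against 3925 and 4647. The longer leader, with a predicted folding energy of -14.8 kcal/mol against -1 for the shorter, had the 6.61-fold higher ratio (log2 2.72, SE 0.22, adjusted p = 3.953e-05 by limma). MAK21 (YDR060W) also had the longer leader higher, by 3.72-fold (log2 1.90, SE 0.57, adjusted p = 0.01858 by limma), but its 41 nt RNA stood at 28471 in one untranslated library and 9779 in the other. Without these untranslated replicates in turn the difference was 0.82 and 2.97, and without 80S replicate 2 it was 1.67 and did not pass (limma, adjusted p = 0.07123). The call of the 41 nt RNA as lower (log2 -1.17) was lost without 80S replicate 1 (-1.21), 80S replicate 2 (-0.99) or untranslated replicate 1 (-0.40), with limma adjusted p of 0.05929, 0.08175 and 0.1578, and stood at -1.94 without untranslated replicate 2.

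YTM1 and SSF1, whose longest leaders hold the upstream ATG shown above in the reference sequence, differed in direction. The 74 nt leader of YTM1 (YOR272W) stood at 184, 241 and 146 FPKM in 80S and at 647 and 1206 in untranslated RNA, while the 47 nt leader stood at 4113, 4691 and 3298 against 4010 and 5018. Lengthening the leader by 27 nt thus went with a log2 difference of -2.07 (SE 0.26, adjusted p = 0.0002023 by limma). In SSF1 the step from 34 to 54 nt, which adds the ATG at the 5′ end, had a difference of 1.66 in the other direction (SE 0.31, adjusted p = 0.001657 by limma). The step from 23 to 34 nt was smaller and opposite, -0.65 (limma, adjusted p = 0.03828), and it lost its call without any 1 of 80S replicates 1, 2 and 3 (-0.63, -0.57 and -0.74) or without untranslated replicate 2 (-0.56), with limma adjusted p from 0.05774 to 0.1285.

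The remaining steps were smaller. NUG1 (0.84), DBP2 (0.94) and NOG1 from 59 to 82 nt (0.74) had the longer leader higher, and RPF1 (-0.88), NOG2 (-1.05) and NOP16 from 21 to 49 nt (-1.45) had it lower. Of these, 3 lost their call without single libraries. DBP2 did so without 80S replicate 1 (0.79), 80S replicate 2 (0.91) or untranslated replicate 1 (0.64). NOG2 did so without 80S replicate 1 (-0.97), 80S replicate 3 (-0.88) or untranslated replicate 2 (-0.56), and also with a pseudocount of 100 (-0.77). NOG1 did so without 80S replicate 2 (0.63), 80S replicate 3 (0.73) or untranslated replicate 2 (0.44). Over the whole range of lengths, the longest leader differed from the shortest by -3.92 in MAK5 (15.1-fold, SE 0.29, adjusted p = 2.553e-05 by limma), 2.71 in HAS1, -2.39 in YTM1, 1.33 in NOG1 and 1.01 in SSF1. The longest leader of NOP16 against its shortest, -0.97, missed the threshold without 80S replicate 3 (-0.88, limma, adjusted p = 0.05055). NSA1, NOC3, RRS1, SSF2 and NOP4 had no pair of longest and shortest leader past the threshold, with differences of -0.30, 0.62, 0.64, 0.56 and 0.49. NOC3 and RRS1 passed without untranslated replicate 1 (1.02 and 1.10), NOP4 without untranslated replicate 2 (0.84) and SSF2 with a pseudocount of 100 (0.86). Without untranslated replicate 2 the steps of NOG1 from 45 to 59 nt (1.07) and of NOP4 from 25 to 46 nt (0.66) also passed. How reads shared by RNAs of 1 gene were assigned is not given in the sources used here, and the part of that assignment in these differences was not tested.

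**Figure D3:**
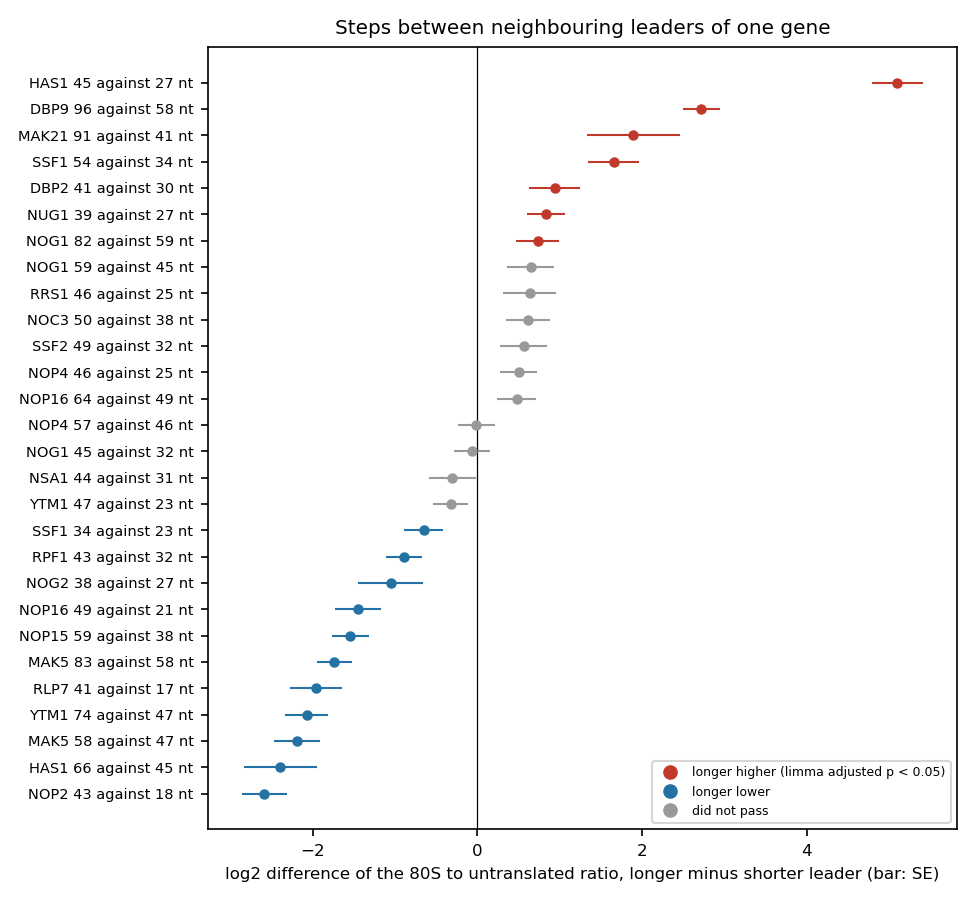
Log2 difference of the 80S to untranslated ratio between neighbouring leaders of 1 gene, longer minus shorter, with SE; pairs of genes with 2 RNAs were adjusted over 2008 genes and the steps of genes with 3 or more over 1500 steps. HAS1 from 27 to 45 nt (5.10) lies far from the other 27 steps, which run from -2.58 to 2.72.

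The input serves as the reference for how much of each RNA went into the extract. In 80S the largest rises were those of NIP7 and of NOP2 (18 nt), and the largest falls those of 2 NOG1 leaders and ERB1. In untranslated RNA the largest rises were those of NIP7 and NOP7, and the largest falls those of HAS1 (45 nt), DBP2 (41 nt) and MAK5 (47 nt). In 80S 14 of 66 members were higher than in the input and 19 lower in limma, against a background of 53.3% of all RNAs called, 20.1% higher and 33.2% lower. In untranslated RNA 16 were higher and 19 lower, against 51.8% called, 17.4% higher and 34.4% lower. The rescaling by median ratios moved the median of all RNAs from -0.25 to -0.01 for 80S and from -0.36 to 0.02 for untranslated RNA, and it turned the second count into 23 higher and 13 lower, 34.8% and 19.7% of the members. Over all RNAs the same rescaling moved the untranslated calls to 26.2% higher and 23.5% lower. Without a replicate, the input was given the spread of the fractions, and the pulldown differs between fraction and input by the labels, so fraction and pulldown cannot be told apart in these contrasts.

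NIP7 (YPL211W, 29 nt) stood at 1684, 1947 and 1651 FPKM in 80S, 1160 and 1625 in untranslated RNA and 71.7 in the input, so both fractions were far above it (log2 4.59 and 4.24, limma, adjusted p = 0.0001531 and 0.0003769). That input is 3 of the coarse steps. NOP2 (18 nt), with an input of 23.9, stood at log2 4.34 in 80S (limma, adjusted p = 0.0002018), and NOG2 (27 nt), with 95.6, at 3.01 (adjusted p = 0.0006832). In untranslated RNA the largest rises besides NIP7 were NOP7 (28 nt), with an input of 71.7, at log2 3.99 and NOP2 (43 nt) at 3.96 (limma, adjusted p = 0.0003976 and 0.0003769). All 8 members with an input under 100 FPKM had a higher value in both fractions, which picking them by a low input favours. They supplied 6 of the 14 members called higher in 80S and 7 of the 16 called higher in untranslated RNA. Without them 8 and 9 of 58 members were called higher. As none of the 8 was called lower, leaving them out could remove higher calls alone. The share called higher over all RNAs with an input of at least 100 FPKM was not computed.

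ERB1 and NOG1 were low in both fractions. ERB1 (34 nt) had 3563 FPKM in the input, above every library of either fraction, and was lower by 6.86-fold in 80S and 3.96-fold in untranslated RNA (limma, adjusted p = 0.0003158 and 0.001618). NOG1 had inputs of 13615, 12725, 4412 and 2996 FPKM for the 32, 45, 59 and 82 nt leaders. The first 3 were 7.69-fold, 8.21-fold and 5.11-fold lower in 80S and were also lower in untranslated RNA, by 3.71-fold, 3.81-fold and 3.71-fold, whereas the 82 nt leader passed neither limma test (log2 -0.09 and -0.37). The members furthest below the input in untranslated RNA were HAS1 (45 nt, -2.99), DBP2 (41 nt, -2.52) and MAK5 (47 nt, -2.03), all of them higher in 80S than in untranslated RNA. Without untranslated replicates 1 and 2 in turn, HAS1 (45 nt) stood at -3.63 and -2.35, past the limma threshold both times.

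The 3 contrasts share libraries and are given side by side for the RNAs called in 80S against untranslated. How often these combinations of calls occurred over all RNAs was not counted, so the counts describe the members alone. Of the 20 higher members, 7 were also higher in 80S than in the input, among them both NOC3 leaders and DBP3, and 9 passed against the input only as lower in untranslated RNA, among them MAK16 and both DBP2 leaders. Of the 28 lower members, 15 were below the input in 80S. For NOP13, NOP12 and CIC1 the 80S level was below and the untranslated level above the input, and for SPB1, NOP7 and NOP2 (43 nt), 3 RNAs of low input, both fractions were above it. For 7 others, among them DRS1 and NSA1 (44 nt), 80S against input did not pass while untranslated RNA was above the input.

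**Figure D4:**
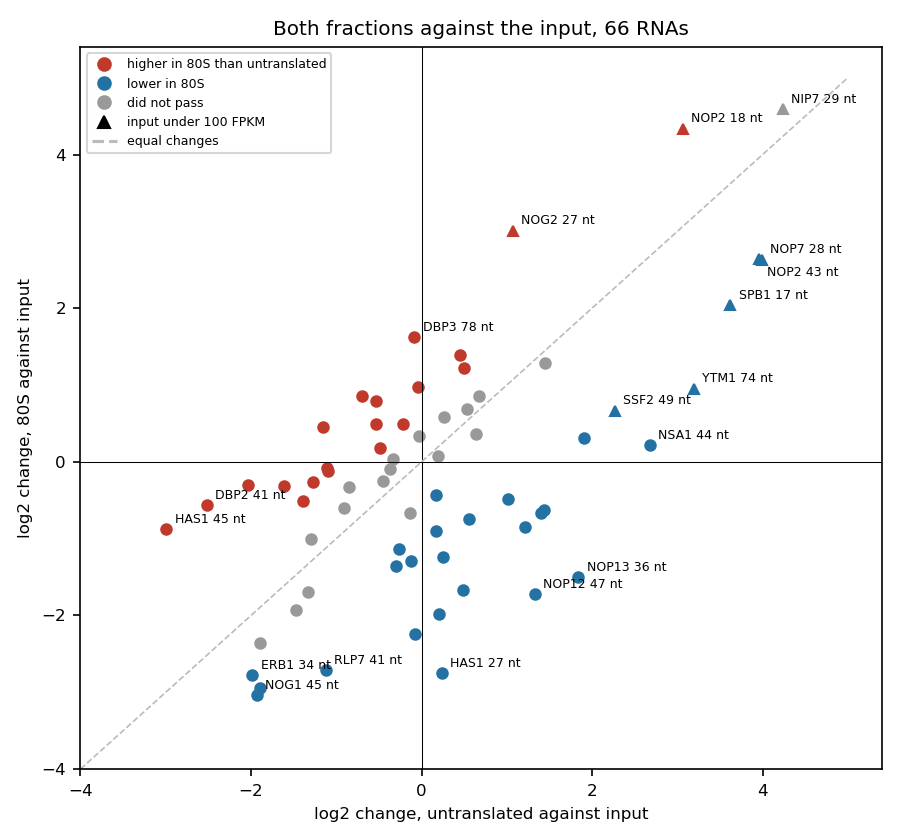
Log2 change of FPKM + 1 against the input for the untranslated fraction (x axis) and the 80S fraction (y axis), 66 RNAs, coloured by the limma call of 80S against untranslated; triangles mark the 8 RNAs with an input under 100 FPKM. The triangles lie at the upper right, from 0.67 to 4.59 on the y axis, and NOG1 (45 nt) and ERB1 at the lower left.

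The leaders of the assembly genes were short and contained few upstream start codons. Their median length was 38.5 nt, from 16 to 96 nt, against 45 nt for all RNAs, and 32.1% of bases were G or C in the median leader against 34.7%. An upstream ATG was present in 2 of 66 (3.03%) against 14.2% of 6860 leaders with a sequence, and an A at the third base before the start codon, the position best known for its effect on start codon choice, in 52 (78.8%) against 62.6%. Predicted folding was weak, with a median energy of -1.15 kcal/mol against -3.10, not adjusted for leader length. The share with an upstream ATG was not adjusted for length either, and nested leaders of a gene were counted separately. A run of TTTTT, searched on the RNA strand alone, was found in 3 member leaders (4.55%), all of MAK5, against 10.9%, and a run of AAAAAAAA in 0, against 3.05%. The other large subunit assembly factors had the same median length, 38.5 nt, and an A at the third base before the start codon in 79.0%. They had an upstream ATG in 12.9% of 62 leaders and a median folding energy of -2.55 kcal/mol. These features were read from the reference and describe the leaders, without a test.

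Across the members, the feature that moved most with the 80S to untranslated ratio was base composition. The median G and C share was 30.4% in the 20 leaders called higher, 36% in the 28 called lower and 31.4% in the rest, and over all RNAs it was 32.4%, 36.7% and 35.5%. Spearman's rho between G and C share and the log2 change was -0.35 over the 66 members and -0.27 over 6860 RNAs. Over the 62 RNAs of the other large subunit assembly factors it was weaker, -0.16. For the share of A it was 0.26 over the members and 0.30 over those factors. Over the members and all RNAs it was -0.04 in both for leader length, and -0.01 and 0.02 for folding energy. These are correlations across RNAs that share libraries, and leaders of 1 gene share bases. Within genes, the added stretch was a median of 28.0% G or C in the 7 steps in which the longer leader was higher and 36.4% in the 11 in which it was lower, with ranges of 11.1% to 43.5% and 27.3% to 54.5% that overlap. In the 10 steps that did not pass, the median was 32.8% and the range, 14.3% to 64.7%, was wider.

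Other factors of large subunit assembly, 39 genes in a list chosen for their function, gave 62 RNAs of 36 genes. In limma 26 were higher in 80S and 24 lower, or 41.9% and 38.7% beside the background of 38.6% and 31.8%. Their median log2 change was 0.10. The lowest were NOP53 (36 nt, -3.17), which recruits the RNA exosome to the particle, SYO1 (101 nt, -3.14), a chaperone of ribosomal proteins, and LSG1 (20 nt, -2.85), a cytoplasmic GTPase. The highest were CGR1 (23 nt, 2.87), RIX1 (17 nt, 2.86) and another leader of SYO1 (68 nt, 2.78). SYO1 stood at 1035, 1203 and 1074 FPKM in 80S against 8644 and 10929 in untranslated RNA with 101 nt, and at 7400, 6705 and 6777 against 860 and 1186 with 68 nt, so the factors outside the list of members also had leaders of 1 gene on opposite sides.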

How the data were processed

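The deposited values are FPKM per RNA and library, per the file headers. The submitters' processing notes name cutadapt and STAR. What program computed FPKM, on which build and with what treatment of shared reads is not given in the sources used here. From these values log2(FPKM + 1) was computed, and a limma 3.58.1 model (R 4.3.3) was fitted over the 6 libraries with group means and a trend of variance on level (residual degrees of freedom 3, prior 5.15), with Benjamini-Hochberg adjustment over all RNAs at 0.05 and no filter. All fold changes refer to log2(FPKM + 1), which understates those of low RNAs. Leader pairs were tested in the same way on within-library differences, with the trend on the mean level of both RNAs. The smallest two-sided p of an exact permutation test is 0.1 for 3 libraries against 2, so none was used. limma was tested on simulated data with normal noise in which few RNAs changed, unlike the data here. That run checked the code and gives no error rate for the calls made here.

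Leaders were read from R64 as the named number of bases upstream of the annotated start codon: 66 of 66 members and 6860 of 6962 RNAs received one. In 65 member leaders the base just upstream was a pyrimidine and 52 began with A. Folding energies came from ViennaRNA 2.7.2, other steps from Python 3.11.15, pandas 2.3.3, numpy 2.4.6 and scipy 1.17.1. RNAs named in full were the 8 highest and 8 lowest called members without overlap, 3 and 3 against the input, the ends of each role group, every called leader pair and the RNAs of TIF6, NOG1, ERB1, NOP7, YTM1, SSF1 and SSF2. The members and lists were chosen with earlier results of these data known. Alternatives were pseudocounts of 10 and 100, a mean FPKM of at least 500, rescaling by median ratios, no trend, no input, a replicate block and leaving out each fraction library.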

Additional observations from a re-analysis of the deposited data

How the results depend on the processing

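Counts of member RNAs and pairs past the threshold stayed within 1.5 times the reported count under every alternative tried. Leaving out single libraries gave 16 to 20 members higher and 25 to 27 lower for 80S against untranslated, 11 to 17 and 17 to 24 for 80S against input, 16 to 19 and 17 to 21 for untranslated against input, 13 to 16 pairs of longest and shortest leaders and 7 to 9 neighbouring steps. The fits that leave 1 untranslated library assume that it varies like the other groups. Of 1327 values of single RNAs and pairs under an alternative, 1255 kept their direction and their side of the threshold, 43 lost the call, 15 gained one and 14 changed sign. The values cover all members for 80S against untranslated and every member pair. For each contrast with the input they cover only 6 called members, picked for large rises or falls. None of those that changed sign had been called. NOP16 (49 nt) stood at 0.041 with the replicate block and ran from -0.40 to 0.17 without single libraries. Over the same omissions NUG1 (27 nt) ran from -0.029 to 0.39, and NOG1 (82 nt) from -0.094 to 0.65. The NOP4 step from 46 to 57 nt was 0.018 with a pseudocount of 100, 0.079 with the block and -0.19 to 0.17 without single libraries, and the NOG1 step from 32 to 45 nt ran from -0.20 to 0.049. The cause was not tested. With rescaling, MAK5 (58 nt), NOG1 (59 nt) and NOP15 (38 nt) passed as lower, and MAK21 (91 nt), NOC2, NOG2 (38 nt) and NUG1 (39 nt) did not pass.

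Replicate numbers are not stated to mark a shared extract. Deviations of same-numbered libraries correlated at 0.09 for replicates 1 and 0.53 for replicates 2, across RNAs. The 2 untranslated libraries deviate from their mean by equal and opposite amounts. Pairs of unlike number therefore gave the same values with the sign reversed, -0.09 for 80S replicate 1 and -0.53 for 80S replicate 2. The correlations thus cannot settle whether the numbers mark pairs. With the replicate number as a block, 22 members were higher and 28 lower for 80S against untranslated, 15 and 19 for 80S against input and 16 and 18 for untranslated against input, and 14 longest-shortest pairs and 9 steps passed. Only 80S replicate 3 has its number, so the block takes up that library in comparing 80S with untranslated RNA. The log2 values with the block are then those without 80S replicate 3, as for NOP16 (49 nt, 0.041). The block is thus no separate check of these values, and it leaves fewer residual degrees of freedom than the main fit. With the block NOP16 (64 nt, 0.66) and NOP4 (25 nt, 0.55) passed as higher, as did the NOG1 step from 45 to 59 nt (0.73). None of these passed when 80S replicate 3 was left out without a block. The block took the call from NOP16 (64 nt against 21 nt) and from SSF1 (34 nt against 23 nt). The fit without the input gives no value for contrasts that use it. Read depth is unknown, and input values under 100 FPKM, most of them in coarse steps, limit the contrasts of 8 members. The inputs of NOP2 (43 nt, 35.9 FPKM) and SSF2 (49 nt, 98.0 FPKM) lay off the whole steps.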
